A study of Mus musculus with 8 samples.

Results

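The 10 genes followed here mark the mural cells of blood vessels, and were measured in forebrain RNA of TgCRND8 transgenic mice (Tg) and of their non-transgenic littermates (NTg). TgCRND8 mice overexpress the amyloid precursor protein APP. The members were found by matching the 10 symbols to Ensembl identifiers, which gave 1 gene each among 56748 genes, and all 10 were abundant enough to be tested with 21588 genes in all. They were treated as 6 pericyte members (Pdgfrb, Rgs5, Vtn, Kcnj8, Abcc9 and Higd1b) and 4 smooth muscle members (Acta2, Myh11, Tagln and Cnn1). Polyadenylated RNA was sequenced from 4 Tg and 4 NTg libraries, all at an age of 18 months, from the forebrain of a frozen, pulverised hemibrain, with no treatment named. Libraries are numbered within a genotype, with no outright statement that each is a separate animal. The p-values below therefore weigh a difference against the spread between these libraries, which may not be that between animals.

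Mural cells wrap the endothelial tube of a vessel. Pericytes sit on capillaries within the basement membrane and are recruited by platelet-derived growth factor B from the endothelium, while smooth muscle cells ring arteries and arterioles and set their diameter with a contractile apparatus of smooth muscle actin and myosin. In brain, pericytes take part in building and keeping the blood-brain barrier, and amyloid is often laid down in the wall of arterioles. The pericyte members are not exclusive to pericytes, since Pdgfrb is also made by fibroblasts of the vessel wall and several members are shared with smooth muscle cells.

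Library totals ran from 57129090 to 65242741 counts. App, to which reads of the transgene can align in part, checked the labels, at 2532 to 2980 CPM in Tg and 1390 to 1623 CPM in NTg (CPM scales each gene's counts to a fixed library total, adjusted with TMM factors; log2 fold change 0.94, SE 0.07, edgeR quasi-likelihood adjusted p = 0.00146). Tg replicate 1 stood apart in markers of glia, with a summed level of 767 CPM for 6 reactive astrocyte genes where the highest Tg library reached 2452 CPM and the NTg libraries 494 to 590 CPM. In counts over the tested genes, NTg replicate 4 differed more from the other NTg libraries than those differed from each other (values with the processing). NTg replicate 4 was also the highest library for Rgs5, Abcc9 and Higd1b. For some members the value without single libraries is also given, and the ranges for the others stand with the dependence on processing.

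None of the 10 mural cell markers passed the test for a difference between the genotypes. The quasi-likelihood test of edgeR called 0 of the 10 at an adjusted p of 0.05, where it called 0.0139% of all tested genes (0.00463% as lower in Tg), and 0 of the 10 had an unadjusted p under 0.05, against 7.36% of all tested genes. DESeq2 and limma-voom also called 0 of the 10. In 10 of 10 members the CPM ranges of the genotypes overlapped, and over all tested genes 4.20% had ranges that did not. The median log2 fold change was -0.07 for the 6 pericyte members and -0.11 for the 4 smooth muscle members, beside -0.0024 for all tested genes. Of the 10 members 7 had a log2 fold change below 0, as did 50.8% of all tested genes. With 1 library left out at a time that sign turned for Pdgfrb, Rgs5, Vtn, Kcnj8, Higd1b, Tagln and Cnn1, and it did not turn for Abcc9, Acta2 and Myh11. A test that finds no difference does not show that the levels were equal, so the 95% confidence interval of each difference is given with its gene. In whole tissue, fewer cells of a type and less RNA per cell cannot be told apart.

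**Figure D1:**
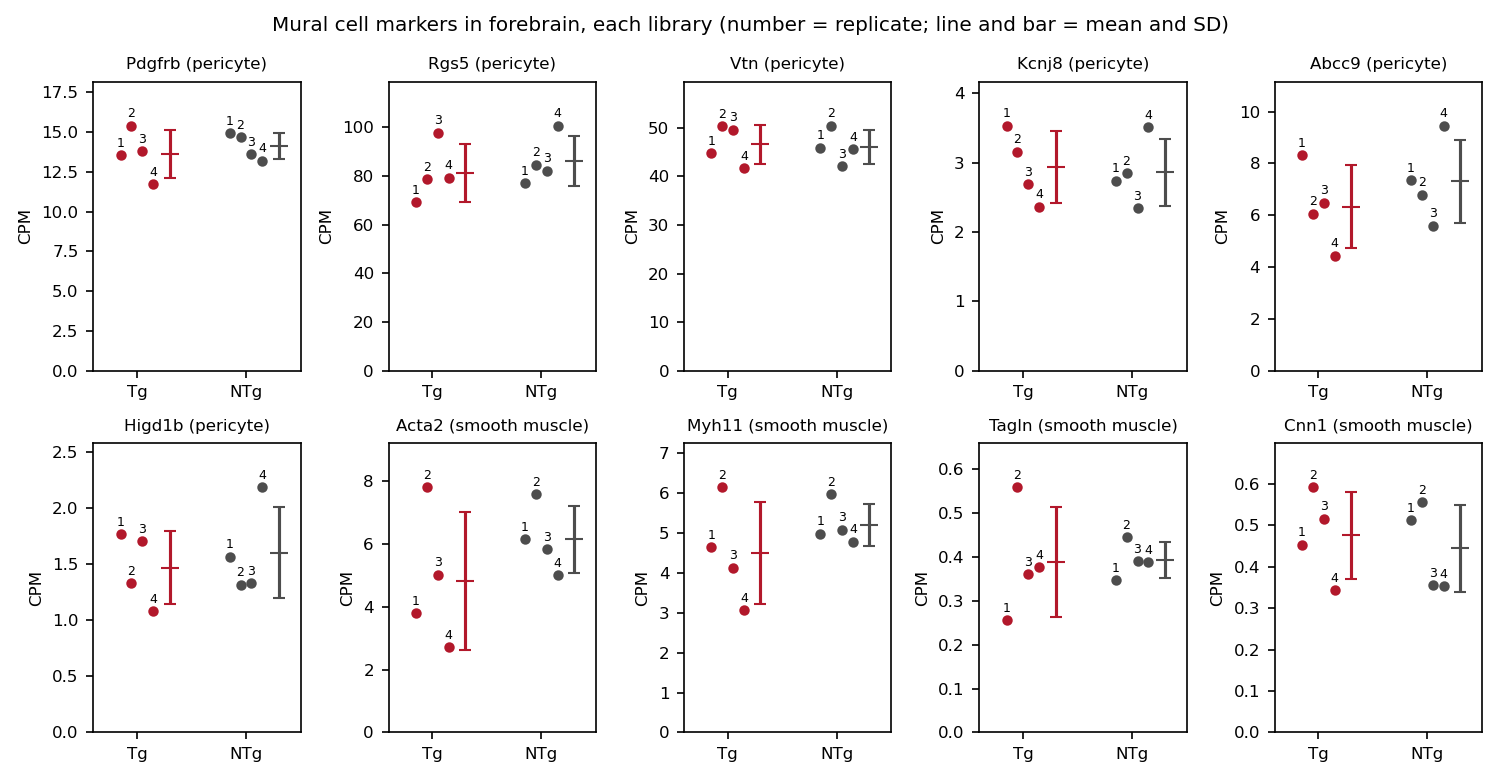
CPM of each member (vertical axes, each starting at 0) in the 4 Tg (red) and 4 NTg (grey) libraries, with replicate numbers above the points and the mean with its SD beside them. The genotypes overlap in each of the 10 panels, and Tg replicate 4 is the lowest of the 8 libraries for Pdgfrb, Vtn, Abcc9, Higd1b, Acta2, Myh11 and Cnn1.

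Pdgfrb encodes the receptor through which platelet-derived growth factor B recruits and maintains pericytes. It had 13.5, 15.4, 13.8 and 11.7 CPM in Tg replicates 1 to 4 and 14.9, 14.7, 13.6 and 13.2 CPM in NTg replicates 1 to 4. The highest and the lowest of the 8 libraries were both Tg, and the log2 fold change was -0.05 (SE 0.09, 95% confidence interval -0.24 to 0.14, edgeR adjusted p = 0.967). Expressed on a linear scale, the interval ran from 15.6% lower (-15.6%) to 10.6% higher in Tg, the narrowest but that of Vtn.

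Rgs5, a regulator of G protein signalling and the pericyte member with the most counts, had 69.2, 78.7, 97.8 and 79.3 CPM in Tg and 77.1, 84.6, 82.2 and 101 CPM in NTg. Tg replicate 1 was the lowest library and NTg replicate 4 the highest. The log2 fold change was -0.08 (SE 0.11, interval -0.33 to 0.16, edgeR adjusted p = 0.945).

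Vtn encodes vitronectin, an adhesion protein of plasma and matrix that pericytes make in brain. It had 44.8, 50.3, 49.6 and 41.7 CPM in Tg and 45.9, 50.4, 42.0 and 45.6 CPM in NTg, so both genotypes spanned nearly the same range. Its log2 fold change of 0.02 (SE 0.07, interval -0.15 to 0.19, edgeR adjusted p = 0.988) had the smallest SE of the 10 members. The interval reached from -9.85% to 13.7% on a linear scale.

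Kcnj8 and Abcc9 encode the pore and the regulatory subunit of the ATP-sensitive potassium channel of mural cells, and are neighbours on chromosome 6 in the RefSeq gene order. Kcnj8 had 3.53, 3.16, 2.68 and 2.37 CPM in Tg and 2.74, 2.84, 2.35 and 3.51 CPM in NTg. Abcc9 had 8.33, 6.07, 6.49 and 4.44 CPM in Tg and 7.36, 6.80, 5.60 and 9.46 CPM in NTg. For both genes Tg replicate 1 and NTg replicate 4 were the 2 highest libraries, 1 of each genotype. The log2 fold change was 0.04 for Kcnj8 (SE 0.16, interval -0.33 to 0.41) and -0.21 for Abcc9 (SE 0.20, interval -0.66 to 0.25), with edgeR adjusted p-values of 0.989 and 0.921. Leaving out Tg replicate 1 or NTg replicate 3 gave Abcc9 a log2 fold change of -0.37 or -0.31, and leaving out replicate 4 gave -0.07 (that of Tg) or -0.06 (that of NTg), each uncalled by edgeR. It overlaps the gene 5330439B14Rik in the RefSeq annotation, so its counts are uncertain there.

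Higd1b, a mitochondrial inner membrane protein of the hypoxia-induced gene family that is used as a pericyte marker, had 1.77, 1.33, 1.70 and 1.08 CPM in Tg and 1.57, 1.32, 1.33 and 2.19 CPM in NTg. NTg replicate 4 was again the highest library and Tg replicate 4 the lowest. The log2 fold change was -0.12 (SE 0.21, interval -0.60 to 0.36, edgeR adjusted p = 0.968), from 63 to 124 counts per library. Higd1b overlaps Eftud2 in the RefSeq annotation, so reads from the overlap may be assigned to either gene.

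Acta2, smooth muscle alpha-actin, had 3.80, 7.81, 5.02 and 2.71 CPM in Tg and 6.16, 7.58, 5.83 and 5.01 CPM in NTg. Tg replicates 1 and 4 lay below all NTg libraries, while Tg replicate 2 was the highest of the 8. The log2 fold change of -0.35 was the largest in size among the members and did not pass the test (SE 0.28, interval -0.98 to 0.29, edgeR adjusted p = 0.898). Its coefficient of variation was 45.4% in Tg and 17.4% in NTg. The value was -0.68 without Tg replicate 2 and -0.15 without Tg replicate 4, with edgeR adjusted p-values of 0.591 and 0.976.

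Acta2 is a classic target of serum response factor, which binds the CArG box (CC and GG on either side of 6 A or T bases, the same on both strands). Because Acta2 had the highest coefficient of variation of the members in Tg, though not in NTg, and Acta2 and Cnn1 are the smooth muscle members with an entry among the RefSeq promoters (build GRCm38.p6), the 250 bases before their starts are shown, 5′ to 3′ on the gene's strand, with CArG boxes holding at most 1 G or C among the inner bases in capitals. The first lies on chr19:34255374-34255623 (minus strand) and the second on chr9:22099003-22099252 (plus strand).
Acta2: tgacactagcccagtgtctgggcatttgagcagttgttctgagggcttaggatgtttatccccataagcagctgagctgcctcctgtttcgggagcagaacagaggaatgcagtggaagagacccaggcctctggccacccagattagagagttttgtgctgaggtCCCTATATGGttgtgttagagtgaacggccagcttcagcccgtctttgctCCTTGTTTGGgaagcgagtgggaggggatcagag
Cnn1: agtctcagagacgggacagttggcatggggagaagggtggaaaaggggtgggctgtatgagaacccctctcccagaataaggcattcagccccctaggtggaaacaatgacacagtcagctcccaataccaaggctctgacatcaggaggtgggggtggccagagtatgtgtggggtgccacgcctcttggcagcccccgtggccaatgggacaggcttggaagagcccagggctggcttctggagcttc
The Acta2 window held 2 such boxes, CCCTATATGG at -84 to -75 and CCTTGTTTGG at -34 to -25, counted back from the base before the start, and each has 1 inner base that is G or C. The Cnn1 window held 0, as did those of Rgs5, Kcnj8, Abcc9 and Vtn. Of 32851 RefSeq promoters, 8.59% held a box of this kind in the same 250 bases, and 1.47% a box with A or T alone inside. Of the 10 members, 6 had an entry. A match describes the letters and is not a measured binding site.

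Myh11, the smooth muscle myosin heavy chain, had 4.65, 6.15, 4.13 and 3.07 CPM in Tg and 4.99, 5.97, 5.08 and 4.78 CPM in NTg. Tg replicates 1, 3 and 4 lay below all NTg libraries and Tg replicate 2 above them. The log2 fold change was -0.21 (SE 0.19, interval -0.63 to 0.21, edgeR adjusted p = 0.910). It was -0.40 without Tg replicate 2 and -0.07 without Tg replicate 4, with edgeR adjusted p-values of 0.770 and 0.986.

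Tagln and Cnn1 encode transgelin and calponin 1, actin-binding proteins of the contractile apparatus, and both were near the lower end of what was tested. Tagln had 17, 34, 21 and 22 counts in Tg and 21, 28, 22 and 22 counts in NTg, or 0.257 to 0.559 CPM in Tg and 0.347 to 0.445 CPM in NTg. Tg replicates 1 and 2 were the lowest and the highest library. Cnn1 had 30, 36, 30 and 20 counts in Tg and 31, 35, 20 and 20 counts in NTg, with nearly the same range in both genotypes. The log2 fold change was -0.02 for Tagln (SE 0.25, interval -0.58 to 0.55) and 0.10 for Cnn1 (SE 0.24, interval -0.45 to 0.64), with edgeR adjusted p-values of 0.998 and 0.981. At this depth the interval on a linear scale ran from -33.3% to 46.0% for Tagln and from -26.7% to 55.7% for Cnn1. Tagln also overlaps Pcsk7 in the RefSeq annotation, and counts of a kit that does not mark strand cannot separate the 2 genes there.

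**Figure D2:**
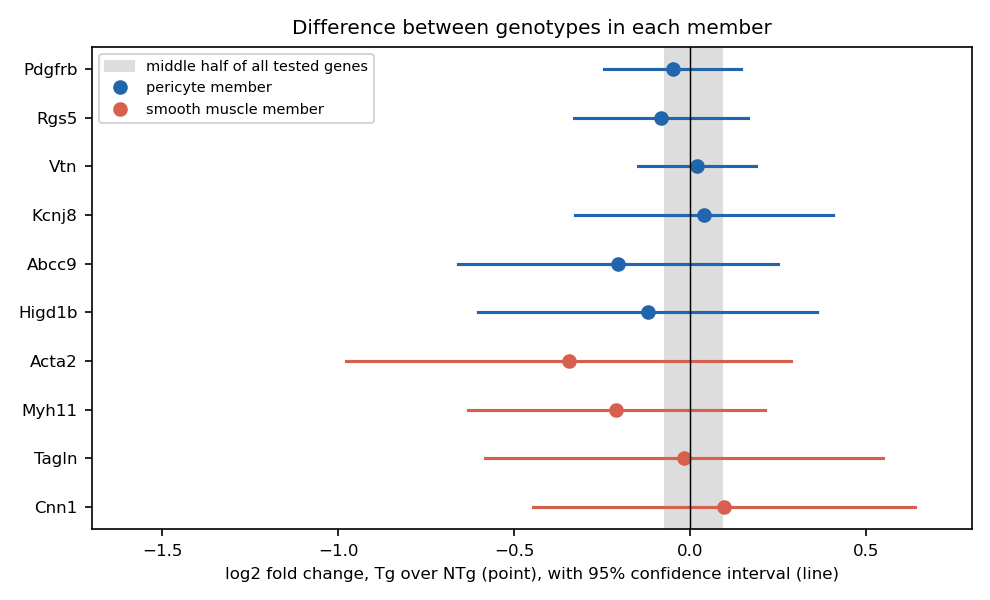
Log2 fold change (Tg over NTg, horizontal axis) of each member with its 95% confidence interval, pericyte members in blue and smooth muscle members in red, over the interquartile range of all tested genes in grey (-0.07 to 0.09). All 10 intervals include 0, and those of the smooth muscle members are wider than those of Pdgfrb, Rgs5 and Vtn.

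Set against each other, pericyte and smooth muscle members did not separate the genotypes either. In Tg replicates 1 to 4 the mean log2 CPM of the pericyte members, relative to the NTg mean, was 0.05, -0.03, 0.03 and -0.33, and in the NTg replicates -0.01, -0.02, -0.18 and 0.22. The mean of the smooth muscle members was -0.33, 0.38, -0.12 and -0.57 in Tg and 0.0053, 0.26, -0.09 and -0.17 in NTg. The Tg libraries were spread more widely than the NTg libraries in the smooth muscle mean, with an SD of 0.40 in Tg and 0.18 in NTg; the difference in spread was not tested. The pericyte mean minus the smooth muscle mean averaged, as log2 CPM, 2.89 ± 0.34 in Tg libraries and 2.80 ± 0.28 in NTg libraries (SD, n = 4 each), a difference of 0.09. Each SD describes single libraries, and the difference was not tested. With at least 1 CPM required in 4 libraries, which leaves out Tagln and Cnn1, the difference was 0.27. Without Tg replicate 2 the difference was 0.26, without NTg replicate 4 it was 0.22, and without Tg replicate 1 or NTg replicate 2 it was -0.0066 or -0.0026.

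In summed levels the 6 pericyte members reached 141 to 172 CPM in Tg and 147 to 175 CPM in NTg, and the 4 smooth muscle members 6.50 to 15.1 CPM in Tg and 10.5 to 14.6 CPM in NTg. Tg replicate 4 was below the NTg mean in all 6 pericyte and all 4 smooth muscle members, and so was NTg replicate 3. The median log2 fold change of the smooth muscle members was -0.32 without Tg replicate 2, -0.05 without Tg replicate 1, and -0.04 without Tg replicate 4 or without NTg replicate 2. That of the pericyte members was 0.0071 without Tg replicate 4 and 0.0075 without NTg replicate 4.

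**Figure D3:**
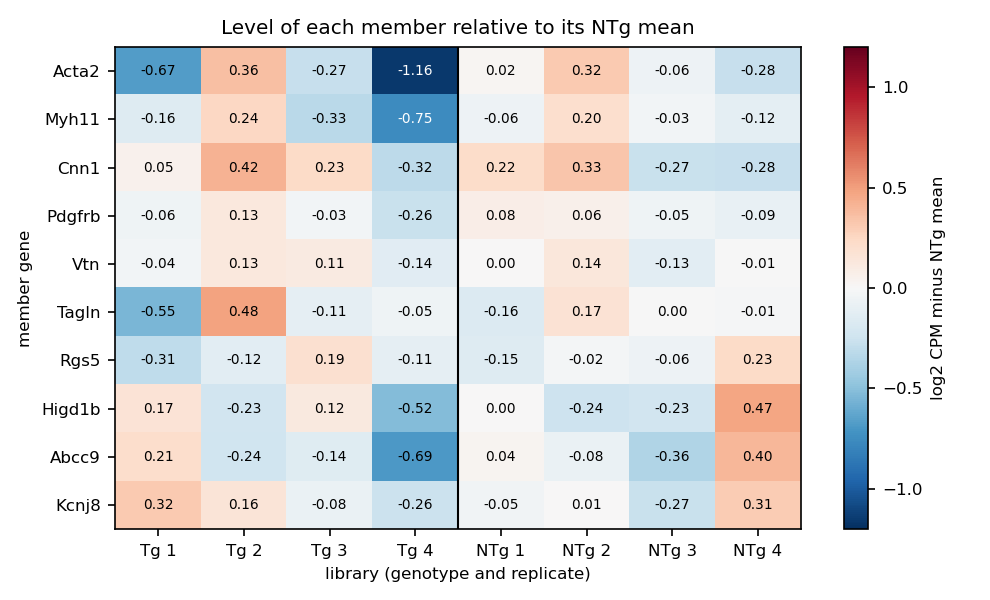
Log2 CPM of each member (rows) in each library (columns, Tg on the left) minus its mean in NTg; red is above and blue below that mean. Tg replicate 4 is below the NTg mean in each row, down to -1.16 for Acta2, while Tg replicate 2 is above it for Acta2, Myh11, Cnn1, Pdgfrb, Vtn, Tagln and Kcnj8.

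Across the 8 libraries the members that varied together followed the pericyte and smooth muscle labels only in part. Of 45 pairs of members, 3 passed a Benjamini-Hochberg adjusted p of 0.05 by Pearson's r and 0 by Spearman's rho, with exact two-sided permutation tests. Acta2 and Myh11 had r = 0.927 (exact permutation p = 0.00139, adjusted 0.0379; rho = 0.905, exact p = 0.00456, adjusted 0.0513; n = 8). Acta2 and the pericyte member Pdgfrb had r = 0.914 (exact permutation p = 0.00196, adjusted 0.0379; rho = 0.929, exact p = 0.00223, adjusted 0.0513; n = 8). Abcc9 and Higd1b had r = 0.915 (exact permutation p = 0.00253, adjusted 0.0379; rho = 0.786, exact p = 0.0279, adjusted 0.140; n = 8). Without the 2 libraries farthest from the median of the first gene, r over the remaining 6 libraries was 0.743 for Acta2 and Myh11, 0.697 for Pdgfrb and Acta2 and 0.708 for Abcc9 and Higd1b. The libraries left out were Tg replicates 2 and 4 for the pairs with Acta2, and replicate 4 of both genotypes for Abcc9 and Higd1b. Each of these relations rests in part on them. With genotype means removed the 3 values were 0.911, 0.933 and 0.919.

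Kcnj8 and Abcc9, the channel partners, had r = 0.834 (exact permutation p = 0.00957, adjusted 0.0615; rho = 0.786, exact p = 0.0279, adjusted 0.140; n = 8). Over 6 libraries, without Tg replicate 1 and NTg replicate 4, r was 0.603, so this relation too rests in part on the libraries left out. Rgs5 had r between -0.16 and 0.42 with the other 9 members. The median r was 0.307 over the 15 pairs of pericyte members, 0.611 over the 6 pairs of smooth muscle members and 0.251 over the 24 mixed pairs. All pairs share libraries, depth and scaling.

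**Figure D4:**
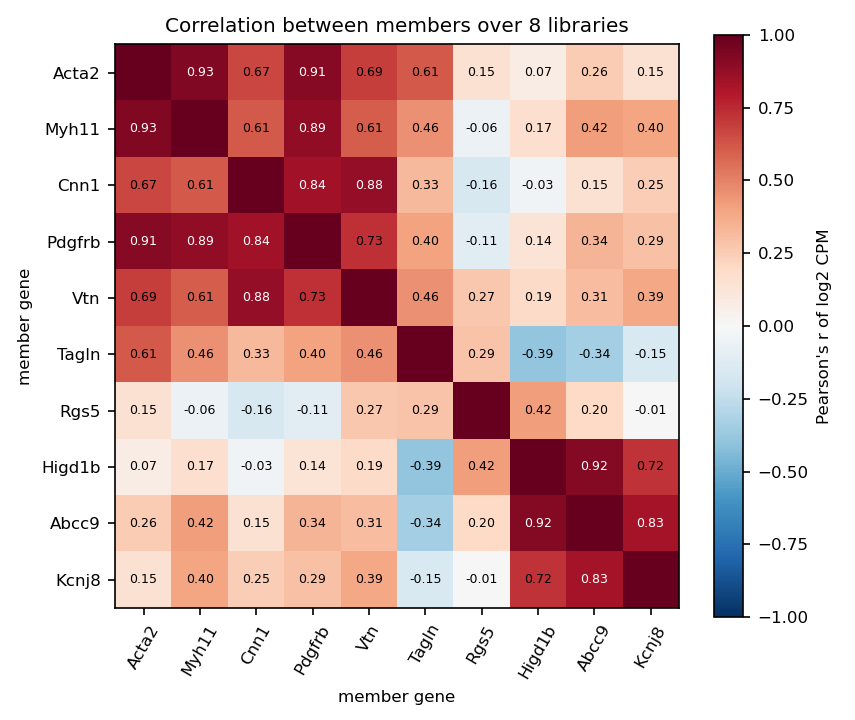
Pearson's r of log2 CPM between each pair of members over 8 libraries (rows and columns are genes, red positive, blue negative). Acta2, Myh11, Cnn1, Pdgfrb and Vtn form one block with r of 0.607 to 0.927, and Higd1b, Abcc9 and Kcnj8 another with 0.719 to 0.915, while Rgs5 is at 0.42 or below with every other member.

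Levels of different genes were compared per length, as CPM per kb of exon in GENCODE release M21. Vtn was at 23.0 ± 2.01 in Tg and 22.7 ± 1.69 in NTg, and Rgs5 at 17.9 ± 2.63 in Tg and 19.0 ± 2.24 in NTg (CPM per kb, SD, n = 4). Vtn was above Rgs5 in 8 of 8 libraries, although their ranges over all libraries overlapped. Pdgfrb came next at 2.49 ± 0.27 in Tg and 2.57 ± 0.15 in NTg, with Acta2 at 2.20 ± 1.00 in Tg and 2.80 ± 0.49 in NTg, and Pdgfrb was the higher of the pair in 4 of 8 libraries. Then followed Higd1b, Kcnj8, Abcc9 and Myh11, at means over all libraries of 1.81, 1.14, 0.814 and 0.639 CPM per kb. Each of these had a range that overlapped that of the gene before it in this order. Tagln and Cnn1 were lowest, at 0.196 and 0.168 CPM per kb, and Tagln was above Cnn1 in 5 of 8 libraries. In this order only the steps from Rgs5 to Pdgfrb and from Myh11 to Tagln separated ranges that did not overlap.

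Genes that act with the members, 99 in 9 lists, were examined in the same fit. Of the 93 tested, edgeR called 0 and limma-voom called 0, and 12 had an unadjusted p under 0.05 in edgeR, as did 7.36% of all tested genes. DESeq2 called 5 of the 93, where it called 1.68% of all genes given an adjusted p, namely S1pr3, Itgb5 and Cnn3, higher in Tg, and Mylk and Csrp2, lower in Tg. Without Tg replicate 1 edgeR called 4 of these 5, all but Mylk, and 1.43% of all genes tested. The genes in this and the next paragraphs beyond the 2 most abundant of each list were chosen after their values were seen.

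Of 20 further pericyte genes, 13 were higher and 7 lower in Tg, with a median log2 fold change of 0.08 (0 called, 1 with an unadjusted p under 0.05). The most abundant were Mcam, a cell adhesion molecule, at 27.9 ± 2.65 CPM in Tg and 29.3 ± 3.41 CPM in NTg, and the transcription factor Ebf1, at 16.1 ± 3.24 CPM in Tg and 16.5 ± 2.47 CPM in NTg. The sphingosine-1-phosphate receptor S1pr3 had 8.27, 20.4, 13.9 and 15.7 CPM in Tg and 10.1, 7.94, 7.09 and 7.92 CPM in NTg (log2 fold change 0.82, SE 0.24, edgeR adjusted p = 0.316, DESeq2 adjusted p = 0.0262). Tg replicates 2, 3 and 4 lay above all NTg libraries, and Tg replicate 1 lay within the NTg range. S1pr3 is also made by astrocytes, and 6 reactive astrocyte markers summed to 767 to 2452 CPM in Tg and 494 to 590 CPM in NTg; their part in this difference was not tested.

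The wider smooth muscle list gave 10 higher and 9 lower genes of 19 tested, with a median of 0.0043 and 0 calls. Its most abundant members, the actin-filament proteins Tpm1 and Cald1, were at 153 ± 8.37 and 35.9 ± 3.36 CPM in Tg and at 165 ± 5.97 and 35.6 ± 3.06 CPM in NTg. In 3 of the 19 each Tg library lay below each NTg library, where 1.58% of all tested genes did so. Mylk, the myosin light chain kinase that starts contraction, had 12.3, 12.7, 12.4 and 8.44 CPM in Tg and 20.4, 17.7, 16.8 and 13.0 CPM in NTg (log2 fold change -0.57, SE 0.16, edgeR adjusted p = 0.297, DESeq2 adjusted p = 0.0323). Pln, phospholamban, a regulator of the calcium pump of the sarcoplasmic reticulum, was at 0.151 to 0.362 CPM in Tg and 0.391 to 0.459 CPM in NTg (log2 fold change -0.75, SE 0.27, edgeR adjusted p = 0.481). Map3k7cl was at 0.197 to 0.309 CPM in Tg and 0.318 to 0.409 CPM in NTg (log2 fold change -0.52, SE 0.23, edgeR adjusted p = 0.673). Myl9, the myosin regulatory light chain of smooth muscle, was at 7.50 ± 0.79 CPM in Tg and 7.60 ± 0.55 CPM in NTg.

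Among regulators of the contractile programme, 3 of 10 tested were higher and 7 lower (median -0.01, 0 called). Serum response factor, Srf, was at 27.1 ± 3.10 CPM in Tg and 27.2 ± 2.73 CPM in NTg. The most abundant of the list were Mef2c, a transcription factor also of neurons, at 315 ± 78.5 CPM in Tg and 281 ± 18.5 CPM in NTg, and the LIM protein Csrp1, at 242 ± 19.2 CPM in Tg and 261 ± 9.83 CPM in NTg. Csrp2, a LIM protein of smooth muscle cells, had 3.98, 3.45, 3.08 and 2.90 CPM in Tg and 4.39, 4.93, 4.57 and 4.69 CPM in NTg, with no overlap (log2 fold change -0.47, SE 0.12, edgeR adjusted p = 0.210, DESeq2 adjusted p = 0.0233). Choroid plexus markers were also lower in Tg, with 0 of 13 called and summed levels of 748 to 1143 CPM in Tg and 1221 to 1637 CPM in NTg, and their part in the lower values of Mylk, Pln, Map3k7cl and Csrp2 was not tested.

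No gene for the signals that mural cells receive passed the test. The growth factor genes and receptor Pdgfra, Pdgfa, Pdgfb, Pdgfc and Pdgfd had log2 fold changes between -0.16 and -0.0040, with 0 of 5 called. Pdgfb, a ligand of Pdgfrb, was at 17.4 ± 1.05 CPM in Tg and 17.7 ± 1.38 CPM in NTg, Pdgfra at 49.3 ± 0.85 CPM in Tg and 49.4 ± 0.55 CPM in NTg, and Pdgfa at 27.1 ± 1.27 CPM in Tg and 27.9 ± 1.11 CPM in NTg. Of 12 notch and angiopoietin genes 3 were higher and 9 lower (median -0.06, 0 called), the most abundant being Hey1, at 41.2 ± 2.83 CPM in Tg and 40.5 ± 2.06 CPM in NTg, and Notch2, at 21.5 ± 2.76 CPM in Tg and 22.5 ± 3.60 CPM in NTg. The neuronal and endocrine subunits of the potassium channel, Kcnj11 and Abcc8, were at 32.3 ± 3.22 and 34.2 ± 5.08 CPM in Tg and at 33.1 ± 4.10 and 30.8 ± 1.97 CPM in NTg, neither called.

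Of 7 genes whose products bind vitronectin or its partners, 5 were higher and 2 lower (median 0.20, 0 called by edgeR, 3 with an unadjusted p under 0.05). The integrin subunit Itgb5 had 66.9, 92.6, 90.1 and 96.4 CPM in Tg and 69.0, 64.0, 66.2 and 65.2 CPM in NTg (log2 fold change 0.39, SE 0.10, edgeR adjusted p = 0.230, DESeq2 adjusted p = 0.0249). The most abundant of the list, Itgav and Itgb8, were at 89.2 ± 8.32 and 82.4 ± 5.95 CPM in Tg and at 91.5 ± 11.04 and 87.2 ± 12.0 CPM in NTg. Itgb5 is also abundant in microglia, whose 7 markers summed to 277 to 438 CPM in Tg and 204 to 276 CPM in NTg; their part in its level was not tested.

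Close relatives of the members were also compared. Of 11 tested paralogs 7 were higher and 4 lower (median 0.05, 0 called), among them the non-muscle actins Actg1, at 781 ± 41.4 CPM in Tg and 747 ± 28.9 CPM in NTg, and Actb, at 691 ± 57.0 CPM in Tg and 634 ± 58.2 CPM in NTg. Cnn3, the calponin of non-muscle cells, had 84.0, 122, 113 and 122 CPM in Tg and 78.5, 85.4, 77.2 and 82.7 CPM in NTg (log2 fold change 0.45, SE 0.11, edgeR adjusted p = 0.195, DESeq2 adjusted p = 0.00900). Myh10, a non-muscle myosin heavy chain, was at 311 to 321 CPM in Tg and 322 to 333 CPM in NTg, a log2 fold change of -0.04 (SE 0.04, edgeR adjusted p = 0.930). Of 7 tested relatives of Rgs5, 3 were higher and 4 lower (median -0.03, 0 called). Rgs4, next to Rgs5 on chromosome 1, was at 264 ± 66.2 CPM in Tg and 276 ± 30.4 CPM in NTg, and Rgs8 at 303 ± 29.8 CPM in Tg and 278 ± 55.7 CPM in NTg. The 2 whose genotypes did not overlap were Rgs1, at 0.513 to 1.17 CPM in Tg and 0.160 to 0.461 CPM in NTg, and Rgs10, at 30.9 to 33.4 CPM in Tg and 24.3 to 29.8 CPM in NTg, both higher in Tg and known from immune cells and microglia. Of all tested genes 2.62% had each Tg library above each NTg library.

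The cells next to mural cells gave a reference point. All 13 endothelial markers were lower in Tg, with a median log2 fold change of -0.23 and summed levels of 252 to 335 CPM in Tg and 324 to 381 CPM in NTg; edgeR called 0 of them, and 6 were lower with an unadjusted p under 0.05, as were 2.68% of all tested genes. Red blood cell markers were lower in 7 of 7 (median -0.84, 0 called, 0 with an unadjusted p under 0.05), and summed to 448 to 3005 CPM in Tg (median 611) and 1283 to 3276 CPM in NTg (median 1782), ranges that overlapped. Choroid plexus markers were lower in 13 of 13, with a median of -0.81 and 10 with an unadjusted p under 0.05. The part of either in the endothelial and mural values was not tested. Of the 10 mural members 7 were lower, of which 0 had an unadjusted p under 0.05. The difference between endothelial and mural markers was not tested. Tg replicate 4, the lowest library in both mural means, was also the lowest in endothelial markers, at 0.55 below the NTg mean (-0.55) on the log2 scale. Of 12 fibroblast markers 4 were higher and 8 lower (median -0.02, 0 called), with summed levels of 129 to 172 CPM in Tg and 121 to 173 CPM in NTg.

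**Figure D5:**
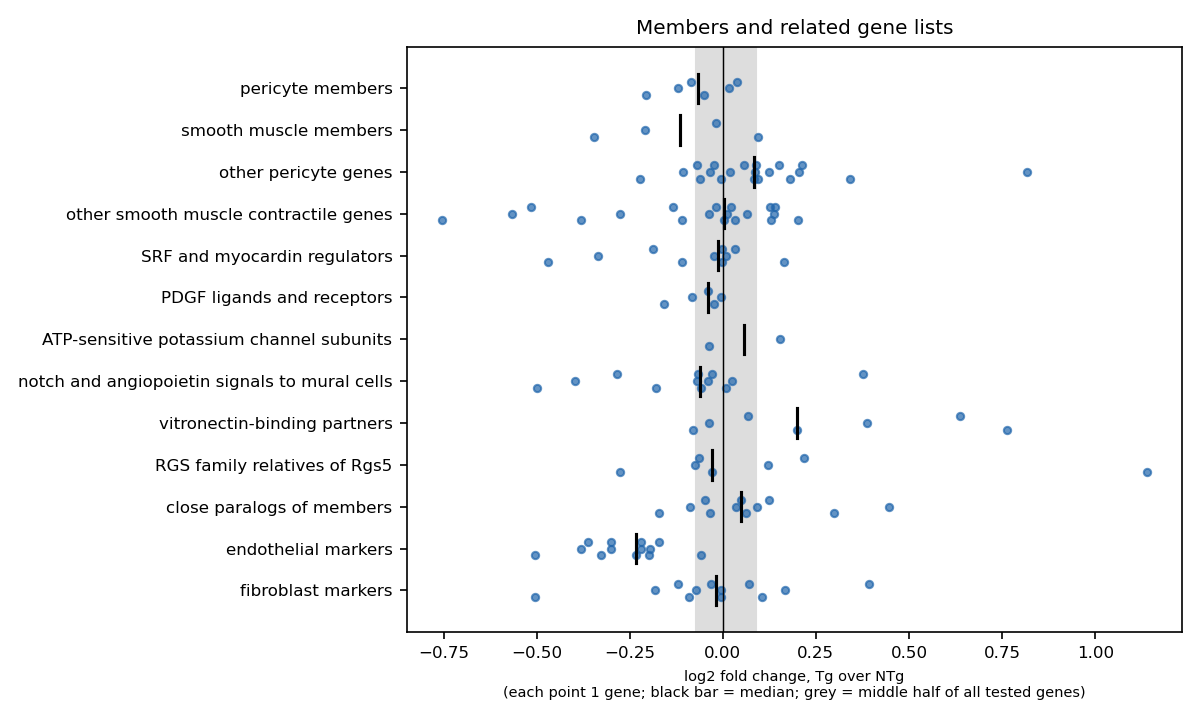
Log2 fold changes (Tg over NTg, horizontal axis) of tested genes in the member lists, the related lists, and endothelial and fibroblast markers; each point is 1 gene, black bars are medians and grey is the interquartile range of all tested genes. The pericyte median (-0.07) lies within the grey range and the smooth muscle median (-0.11) below it, and all 13 endothelial markers lie below 0.

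By genotype-centred log2 CPM over the 8 libraries, the genes among 14011 compared that were most like the pericyte mean were Kdm3a (r = 0.997), Kif20b (0.987), Magohb (0.987), Smad5 (0.987) and Cbfb (0.985). Those most like the smooth muscle mean were Ppp1r12a (r = 0.990), which encodes the targeting subunit of myosin phosphatase, then Ddx17 (0.971), Fat3 (0.967), Slc46a3 (0.957) and Cd6 (0.947). Ppp1r12a was at 94.96, 107.5, 99.1 and 92.9 CPM in Tg and 100, 103, 98.6 and 96.6 CPM in NTg, highest in Tg replicate 2 and lowest in Tg replicate 4 as Acta2 was. These are the extremes of many genes over few libraries and are given as a description.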

How the data were processed

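The deposited values are raw counts of reads per gene for 8 libraries, whole numbers that the authors had not normalized. TruSeq RNA version 2 libraries were read in pairs of 75 bases (NextSeq 500), per the labels' protocols. The submitters' processing notes name STAR, DESeq2 and GRCm39; which counter, annotation and versions were used is not given in the sources used here. Library totals ran from 57129090 to 65242741 counts. Symbols matched 52073 of 56748 identifiers, with 99.58% of the counts. Genes passing filterByExpr (minimum count 10, minimum total 15) were tested with edgeR, using TMM factors, its quasi-likelihood F test and Benjamini-Hochberg adjustment over all 21588 genes (threshold 0.05). An SE was taken as the absolute log2 fold change divided by the square root of F, and its 95% confidence interval used the test's degrees of freedom. Mean log2 CPM used a prior count of 2. Exon lengths (GENCODE M21) and gene order (RefSeq) come from GRCm38 annotations, an older build than that of the counts.

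The members and lists were chosen with earlier results of these data known. The rule for names took the 10 members, up to 4 called genes of each related list or else its 2 most abundant, and the 5 genes most like each member mean (mean of at least 1 CPM). The values of 1 gene of the related lists are not reported here. Alternatives were DESeq2, limma-voom, other scaling, filters, dispersion and thresholds, the replicate number as a block, and each library left out. Versions were R 4.3.3, edgeR 4.0.16, limma 3.58.1 and DESeq2 1.42.0. The fit was tested on simulated data of this comparison with 21327 genes: it called 48.6% of the genes given a 1.5-fold change, 77.4% at 2-fold and 84.8% at 3-fold, with 7 false calls. The changed genes were a random draw of tested genes, with 35, 48 and 56 called, where the real fit called 3 genes in all. In the real data Gfap had a log2 fold change of 1.83 and an edgeR adjusted p of 0.107. These shares therefore do not measure how readily a change in a member would be called. Every pair of replicates within a genotype differed by more than sampling noise, with a chi-square of at least 11.1 per degree of freedom. It was 39.98 to 49.73 for NTg replicate 4 with the other NTg libraries, and 11.11 to 20.38 among those. Pairs with Tg replicate 1 were at 31.31 to 42.01, and the other Tg pairs at 22.83 to 24.79. The label batch reads F for each library, with no statement of what F stands for (it may mark the sex), so no split by batch could be made and the sex of the mice is not known here.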

Additional observations from a re-analysis of the deposited data

Results flagged for a closer look

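In 78 groups of 4 libraries (the members, their means and the related genes named), 4 held a library set far apart from the other 3 by Dixon's gap test at its 95% level, and chance flags about 5% of groups. None of the 4 was a mural member. Mylk was at 8.44 CPM in Tg replicate 4 and at 12.3 to 12.7 CPM in the other Tg libraries. Csrp1 was at 276 CPM in NTg replicate 1, against 255 to 257 CPM in the other NTg libraries. Rgs1 was at 0.160 CPM in NTg replicate 3 and at 0.413 to 0.461 CPM in the other NTg libraries. Myh10 was at 311 CPM in Tg replicate 3 and at 321 CPM in the other Tg libraries.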

How the results depend on the processing

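Under each of 18 alternatives 0 members were called, and the lowest adjusted p of a member by edgeR, DESeq2 or limma was 0.591. The alternative with a threshold of 0.01 on the same fit could not have called a member that was uncalled at 0.05. Of 168 member values under the 17 alternatives that refit them, 155 kept their direction and 13 changed sign, all uncalled. With library totals alone as scaling Tagln had a log2 fold change of 0.0050. The other sign changes came with single libraries left out, when the log2 fold change ran from -0.11 to 0.015 for Pdgfrb, -0.19 to 0.00013 for Rgs5, -0.024 to 0.067 for Vtn, -0.064 to 0.15 for Kcnj8, -0.22 to 0.066 for Higd1b, -0.25 to 0.14 for Tagln and -0.026 to 0.22 for Cnn1. Tagln and Cnn1 had no value with at least 1 CPM required in 4 libraries, and the pericyte minus smooth muscle difference was then 0.27. Over all alternatives the median of the related smooth muscle genes ran from -0.051 to 0.038, that of the contractile regulators from -0.067 to 0.010 and that of the Rgs5 relatives from -0.072 to 0.069, so these have no stable sign.

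Over all tested genes edgeR called 3, against 341 with DESeq2, 127 with no filter on low counts and 1 with the replicate block. With single libraries left out it called 3 to 314 genes, the most without Tg replicate 1, then 16 without NTg replicate 1 and 9 without Tg replicate 2. Of the related genes DESeq2 called 5, and edgeR 0 to 4 with single libraries left out, the 4 without Tg replicate 1. The cause was not tested. The replicate block called 0 members and 0 related genes. Over all tested genes, same-numbered libraries deviated together weakly or not at all (r of -0.0321 to 0.155 over genes), so the numbers were not taken as pairs. For NTg replicates 1 and 3 the same-numbered Tg library had the highest r (0.0656 and 0.155). For NTg replicates 2 and 4 another Tg library did (0.151 and 0.117). The smooth muscle mean was highest in replicate 2 and lowest in replicate 4 of both genotypes. Single genes differed in this. With the block the SE fell from 0.28 to 0.17 for Acta2, from 0.19 to 0.14 for Myh11 and from 0.16 to 0.08 for Mylk, all uncalled. It rose from 0.16 to 0.18 for Kcnj8, from 0.20 to 0.22 for Abcc9 and from 0.21 to 0.24 for Higd1b. Low counts limit Tagln and Cnn1 most, with 17 to 36 counts per library.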
